A study of Ananas comosus with 48 samples.

Results

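The miR172 family was followed in the pineapple apex. Its members were all mature sequences with a count that carry a miR172 name in the deposited table, chosen by name alone. There were 5 members, miR172a-3p, miR172b-3p, miR172a-5p, miR172c-5p and miR172d-5p, out of 127 mature sequences with a count and 190 listed. The sixth listed miR172 sequence, miR172b-5p, had 0 counts in all 48 libraries. Small RNA was sequenced from apices of field-grown pineapple (Ananas comosus, cultivar MD1), each library from 3 apices. Control plants received 10 ml of water in the plant centre, and treated plants received 50 mg of ethephon in 10 ml. Ethephon breaks down to ethylene and is used to force flowering. Apices were taken at 8 samplings, called 6 hours, day 1, day 2, day 3, day 4, day 5, day 6 and day 8, with 3 libraries for each treatment and sampling (16 groups). The first sampling is named for the hour when its processing ended, later in the day than for the other samplings. The excised apex still carried leaf primordia, and no miR in the table marks the apex alone, so the labelled tissue could not be checked. In these bulk samples, fewer cells of a type and less RNA per cell cannot be told apart.

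Plant miR172 silences AP2-like transcription factors, such as APETALA2, TOE1, TOE2 and SMZ in Arabidopsis, by blocking translation and by cleaving the mRNA. Several of these factors hold back flowering, in part by repressing FLOWERING LOCUS T, and APETALA2 also acts in floral organ identity. In Arabidopsis and maize miR172 becomes more abundant as the shoot ages, while miR156, which targets SPL transcription factors, declines. The strand that guides silencing comes from the 3p arm of the hairpin, and the 5p strand is mostly degraded. The question here was how the members stood in apices of ethephon-treated plants against water, at each sampling and over time.

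The mature sequences show which members differ by a shift of the ends and which by single bases. They are written 5′ to 3′ with bases 2 to 8, the seed, in capitals.
miR172a-3p: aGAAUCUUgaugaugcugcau
miR172b-3p: uGAGAAUCuugaugaugcugcgu
miR172a-5p: uGGCAUCAucaagauucacau
miR172c-5p: gUGGCAUCaucaagauucaca
miR172d-5p: gCAGCAUCaccaagauucaca

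Both 3p members share a run of 19 bases that was found in no other listed sequence. miR172b-3p, with 23 bases, starts 2 bases further upstream than miR172a-3p, with 21, so that bases 2 to 8 differ between them although the core is the same. Within the aligned part they differ by A20G, counted from the 5′ end of miR172a-3p, whose base stands first. The sequence of miR172a-3p is also listed under the names miR172c-3p and miR172d-3p, so that reads from these 3 genes cannot be told apart. miR172a-5p and miR172c-5p share a run of 20 bases shifted by 1 base. miR172d-5p differs from miR172c-5p by U2C, G3A and U10C, counted from the 5′ end. Bases 2 to 16 of miR172a-3p are the exact complement of 15 bases in miR172a-5p and in miR172c-5p, and the longest such run with miR172d-5p had 9 bases. No 2 of the 5 members share a seed.

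The family was a small part of the sequenced miRs. Its 4218 counts were 0.143% of all counts in listed miRs, whose totals per library ranged from 18581 to 91791 with a median of 61482. The median total was 65207.5 in water and 54545 in ethephon, so raw counts of the treatments rest on unequal depth. miR172a-3p gave 87.6% of the family counts, with 3696 counts in 48 of 48 libraries. miR172b-3p had 275 counts in 47 libraries, miR172a-5p had 159 in 47, and miR172c-5p had 82 in 30. miR172d-5p had 6 counts in 5 libraries, 4 of them in water. The 3p arm thus held 3971 counts and the 5p arm 247, and the share of the 5p arm was 5.83% in water and 5.90% in ethephon. After a filter on low counts, 57 sequences were tested, among them miR172a-3p and miR172b-3p. The other 3 members were too low to pass. Levels are in CPM, counts scaled to a common library size by the total in listed miRs and TMM composition factors, and 3 counts corresponded to between 29.7 and 140 CPM, depending on the library.

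miR172a-3p was lower in ethephon-treated apices than in water when averaged over the 8 samplings. In water the 24 libraries ranged from 899 to 1930.0 CPM with a median of 1489, and in ethephon from 567 to 1524 CPM with a median of 1015. The ranges overlapped, but 23 of 24 ethephon libraries lay below the water median. The mean was 1459.9 ± 332 CPM in water (SD, n = 24) and 1031 ± 258 CPM in ethephon (SD, n = 24). The log2 fold change, ethephon over water, was -0.52 (SE 0.09, edgeR adjusted p = 1.1e-05), so that the fitted level in ethephon was 0.697 of that in water. Of the 57 sequences, 24 changed on average (42.1%), and 13 of them were lower in ethephon (22.8%). miR172a-3p ranked 8 by size of change among these 13 and 4 by p among all 57. The median log2 fold change over all 57 was -0.05.

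**Figure D1:**
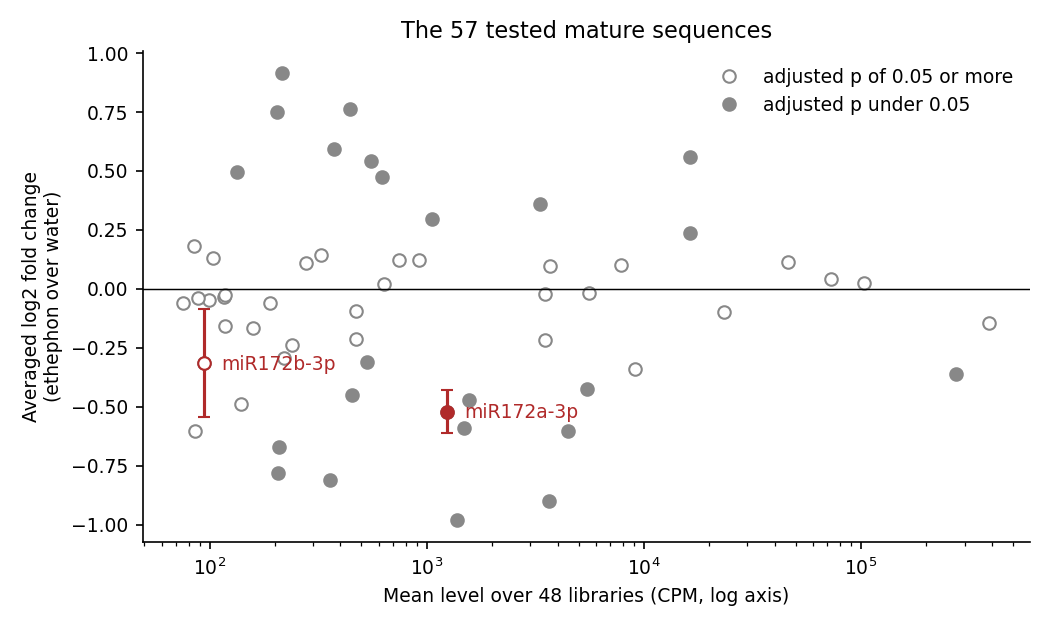
Averaged log2 fold change of ethephon over water (y axis) against the mean level over 48 libraries in CPM on a log axis (x axis) for the 57 tested sequences. Filled points had an adjusted p under 0.05, and both miR172 members are in red with ±1 SE. miR172a-3p lies at -0.52 and is filled, while miR172b-3p lies at -0.32 and is open.

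Other scalings moved all sequences together. Without a composition factor the median of all 57 sequences shifted by 0.12 on the log2 scale, and miR172a-3p stood at -0.40. With all sequencing tags of a library as the scale the median shifted by -0.12, and miR172a-3p stood at -0.65. Relative to the median of all sequences miR172a-3p was -0.47 under the reported scaling, -0.47 without a composition factor and -0.49 on the scale of all tags. A new scale shifts all sequences nearly alike. Values relative to the median therefore stay alike by construction, here and at single samplings, and are no separate support. The averaged miR172a-3p difference passed the threshold under each scaling. Across all sequences the split of calls was less stable, with 11 higher and 13 lower as reported, 14 and 11 without a composition factor, 6 and 15 on the scale of all tags, and 8 and 16 with no filter.

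The fitted difference of miR172a-3p was below 0 at 8 of 8 samplings, which was true of 6 of the 57 sequences (10.5%). At 6 hours the water libraries held 1739, 1308 and 1879.8 CPM and the ethephon libraries 1409, 1344 and 1416 CPM. The ethephon libraries lay within the water range. The log2 fold change was -0.25 (SE 0.25, adjusted p = 0.599), and -0.04 without water replicate 3. Without a composition factor it read 0.048, but the median of all sequences moved by 0.37, and relative to that median miR172a-3p was -0.10 as reported and -0.18 without the factor. At day 1 the water libraries held 1768, 1149 and 1683 CPM and the ethephon libraries 1228, 1249 and 1256 CPM. The ethephon libraries were close together, and 1 water library lay below them. With a log2 fold change of -0.30 (SE 0.26, adjusted p = 0.506), the threshold was not reached, and the value was -0.06 without water replicate 1. The median log2 fold change of all 57 sequences at day 1 was -0.26, close to that of miR172a-3p. At day 2 the water libraries held 911, 1519.9 and 1050.5 CPM and the ethephon libraries 1187, 1012 and 892 CPM. The groups overlapped here too, with a log2 fold change of -0.16 (SE 0.26, adjusted p = 0.789). Without water replicate 2, the highest of the day, the value was above 0, at 0.15. The share of all 57 sequences that changed was 10.5% at 6 hours, 3.51% at day 1 and 5.26% at day 2.

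**Figure D2:**
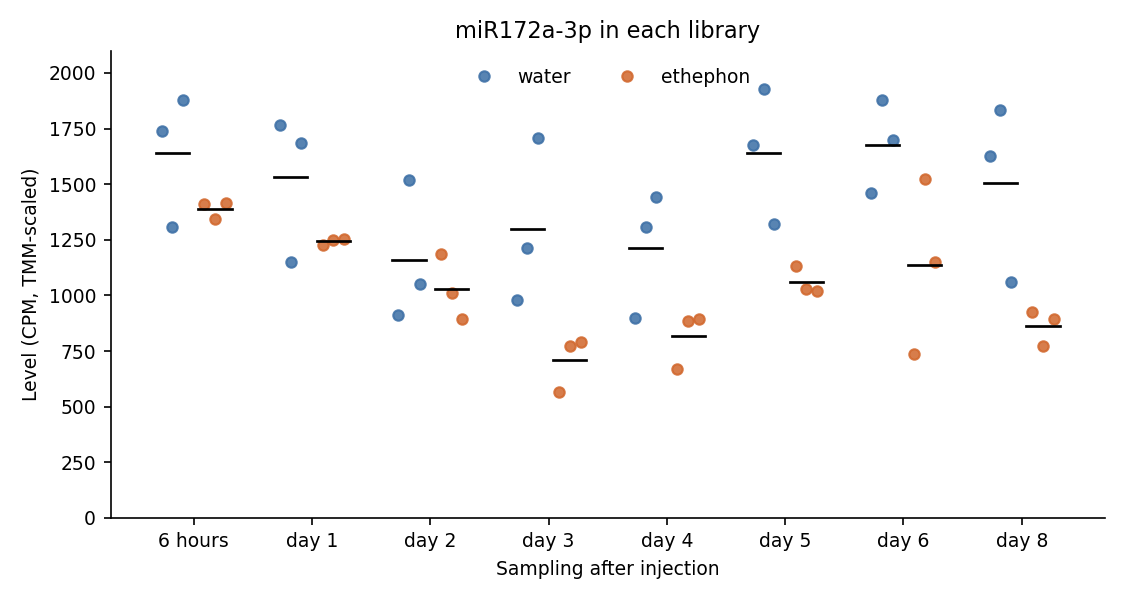
Level of miR172a-3p in CPM (y axis) in each of the 48 libraries by sampling (x axis), water in blue and ethephon in orange, with a bar at the mean of 3 libraries. All ethephon points lie below all water points at day 3, day 4, day 5 and day 8, and the lowest group mean is 709.6 CPM in ethephon at day 3.

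Day 3 was the first sampling at which the treatments did not overlap. At day 3 the water libraries held 979, 1215 and 1708 CPM, and the ethephon libraries 567, 772 and 789 CPM. No ethephon library reached the lowest water library. The log2 fold change was -0.89 (SE 0.26, adjusted p = 0.0174), and 14.0% of all sequences changed at day 3. Of these, 0 were higher and 8 lower in ethephon. This split was 3 and 3 with RLE factors, another scaling, and 0 and 1 without a composition factor. The miR172a-3p call was lost without water replicate 3 (-0.60, adjusted p = 0.172) and without ethephon replicate 1 (-0.70, adjusted p = 0.106). It was also lost under 4 other scalings and with DESeq2, where the log2 fold change lay between -0.60 and -0.71, and narrowly with no filter (-0.87, adjusted p = 0.0557). Relative to the median of all sequences, the day 3 value was -0.75 as reported and lay between -0.73 and -0.82 under these 4 scalings and DESeq2.

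At day 4 the water libraries held 899, 1307 and 1440.4 CPM and the ethephon libraries 668, 886 and 896 CPM. The groups did not overlap, but the lowest water library was close to the highest ethephon library. Their log2 difference was -0.57 (SE 0.26, adjusted p = 0.175), with 8.77% of all sequences changed. At day 5 the water libraries held 1676, 1930.0 and 1320 CPM and the ethephon libraries 1134, 1027 and 1018 CPM. The groups were again apart, and the log2 fold change of -0.62 (SE 0.26) missed the threshold (adjusted p = 0.0872), with 12.3% of all sequences changed. The second of these ethephon libraries had the lowest total of the series, with 22 counts of miR172a-3p. At day 6 the water libraries held 1458, 1877 and 1698 CPM and the ethephon libraries 737, 1524 and 1149 CPM. The ethephon libraries were widely spread, and 1 of them lay inside the water range. This gave a log2 fold change of -0.57 (SE 0.25, adjusted p = 0.246), with 3.51% of all sequences changed. Without ethephon replicate 1, the lowest of the day, it was -0.28.

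At day 8 the water libraries held 1629, 1834 and 1059 CPM, and the ethephon libraries 925, 771 and 894 CPM. Every ethephon library was under the lowest water library. The log2 fold change was -0.80 (SE 0.26, adjusted p = 0.0213), and 31.6% of all sequences changed at day 8. The call was lost without water replicate 2 (-0.68, adjusted p = 0.116), without ethephon replicate 2 (-0.73, adjusted p = 0.0738) and without a composition factor (-0.75, adjusted p = 0.0699). The 4 samplings with every ethephon library below every water library compare with 72 of 456 pairs of a sequence and a sampling (15.8%).

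**Figure D3:**
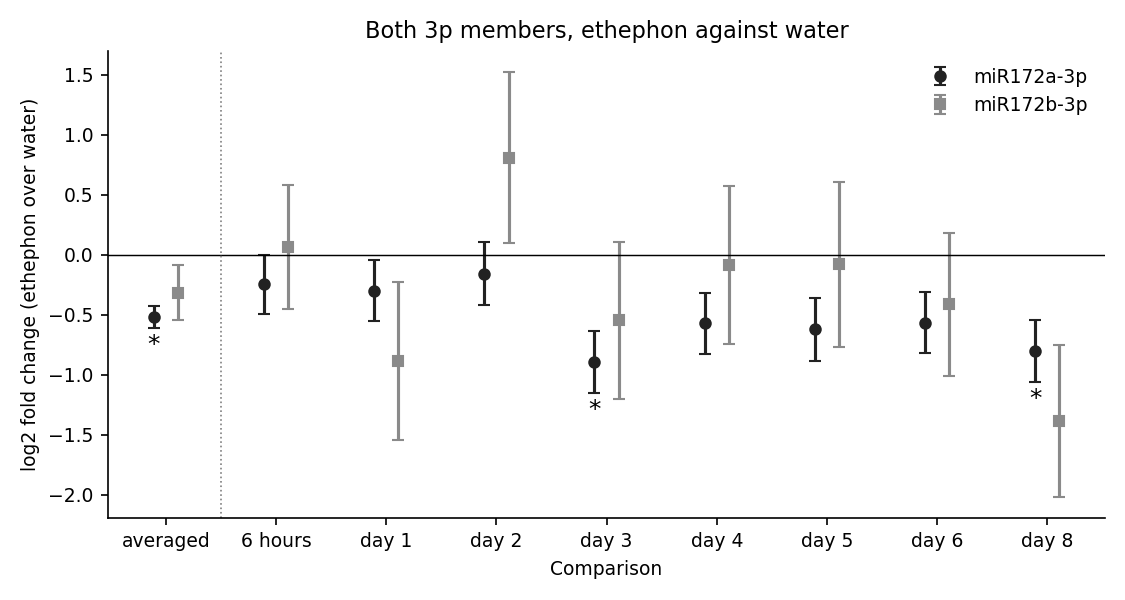
log2 fold change of ethephon over water (y axis) averaged and at each sampling (x axis) for miR172a-3p (black circles) and miR172b-3p (grey squares), with bars of ±1 SE. Stars mark an adjusted p under 0.05, which miR172a-3p reached on average, at day 3 (-0.89) and at day 8 (-0.80), and miR172b-3p did not reach.

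A change of the miR172a-3p difference with time was not detected. The F test of whether the difference varied between samplings gave an adjusted p of 0.595, and 1 of 57 sequences passed it (1.75%). The mean difference at day 4, day 5, day 6 and day 8 was lower than that at 6 hours, day 1, day 2 and day 3 by a log2 of -0.24 (SE 0.18, adjusted p = 0.594). In this contrast 0 of 57 sequences passed with edgeR (0%), with 6 at an unadjusted p under 0.05, 1 with DESeq2 and 4 with limma-voom. The edgeR fits with RLE factors, without a composition factor, with TMM without the most abundant sequence, with no filter and with a mean of at least 10 counts called 2 each.

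The level of miR172a-3p over the samplings was also examined within each treatment. In water the group means fell in the order day 6, 6 hours, day 5, day 1, day 8, day 3, day 4 and day 2, from 1678 ± 209.8 to 1160.4 ± 319 CPM (SD, n = 3), and every pair of neighbours in this order overlapped. The F test of change over samplings gave an adjusted p of 0.301, while 47.4% of all sequences changed over samplings in water. In ethephon the order was 6 hours, day 1, day 6, day 5, day 2, day 8, day 4 and day 3, from 1389.5 ± 39.7 to 709.6 ± 123.4 CPM (SD, n = 3). Here 6 hours and day 1 were apart, and all other neighbours overlapped. The F test gave an adjusted p of 0.0197 in ethephon, where 50.9% of all sequences changed. This call was lost when any replicate number was left out, with adjusted p between 0.0809 and 0.152.

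Between 6 hours and day 8 the miR172a-3p level in water moved by a log2 of -0.13 (SE 0.25, adjusted p = 0.746), with a sign that turned under several settings, and 17.5% of all sequences changed. In ethephon the log2 fold change from 6 hours to day 8 was -0.69 (SE 0.26, adjusted p = 0.0499), with 21.1% of all sequences changed. That call lay at the threshold and was lost without each replicate number in turn, with adjusted p between 0.0964 and 0.162, and under 7 of the other settings. Whether the course over time differed between treatments is the F test between samplings, which did not pass.

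miR172b-3p, the longer 3p member, ranked 53 of 57 sequences by level. Over 24 libraries it ranged from 22.2 to 236 CPM in water, with a median of 97.8, and from 0 to 211 CPM in ethephon, with a median of 78.0. The ranges overlapped almost wholly. The averaged log2 fold change was -0.32 (SE 0.23, adjusted p = 0.302), and 2 SE to either side of it took in both 0 and the averaged value of miR172a-3p. The fitted difference was below 0 at 6 of 8 samplings. At day 5, 1 of these 6, the fitted value was -0.08 although the mean was 85.1 CPM in water and 91.2 CPM in ethephon.

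The widest gap of miR172b-3p was at day 8. The water libraries held 9, 13 and 10 counts, or 190.4, 129 and 128 CPM, and the ethephon libraries 6, 3 and 0 counts, or 121, 50.3 and 0 CPM. The highest ethephon library was just under the lowest water library. Such a separation was seen in 15.8% of pairs of a tested sequence and a sampling, and 31.6% of all 57 sequences changed at day 8. The log2 fold change was -1.38 (SE 0.63, adjusted p = 0.0845). Without ethephon replicate 1, the highest of its group, it was -2.45 (adjusted p = 0.0274), and limma-voom gave -1.88 (adjusted p = 0.0245). Without ethephon replicate 3, the library at 0, it was -0.84 (adjusted p = 0.351). The widest gap in the other direction was at day 2, where water held 2, 7 and 1 counts and ethephon 3, 7 and 3 counts. These groups overlapped, and the log2 fold change was 0.81 (SE 0.71, adjusted p = 0.628), or 2.02 without water replicate 2 and 0.31 without water replicate 1. At the other 6 samplings the groups overlapped, with log2 fold changes between -0.89 at day 1 and 0.06 at 6 hours. The day 1 value was -0.06 without water replicate 1 and -1.53 without ethephon replicate 2, and the day 3 value was -0.12 without ethephon replicate 1 and -1.28 without ethephon replicate 2.

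No difference between treatments was detected in the balance of both 3p members. miR172b-3p made up 2.27 to 11.8% of the 3p counts of a water library, with a median of 5.96%, and 0 to 13.0% of those of an ethephon library, with a median of 6.98%. The mean share was 6.50 ± 2.44% in water and 7.33 ± 3.36% in ethephon (SD, n = 24). The difference of 0.83 percentage points was not past the threshold (p = 0.354, two-sided permutation test within samplings, 100000 shuffles). Without replicate 2 the difference was -0.40 percentage points.

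**Figure D4:**
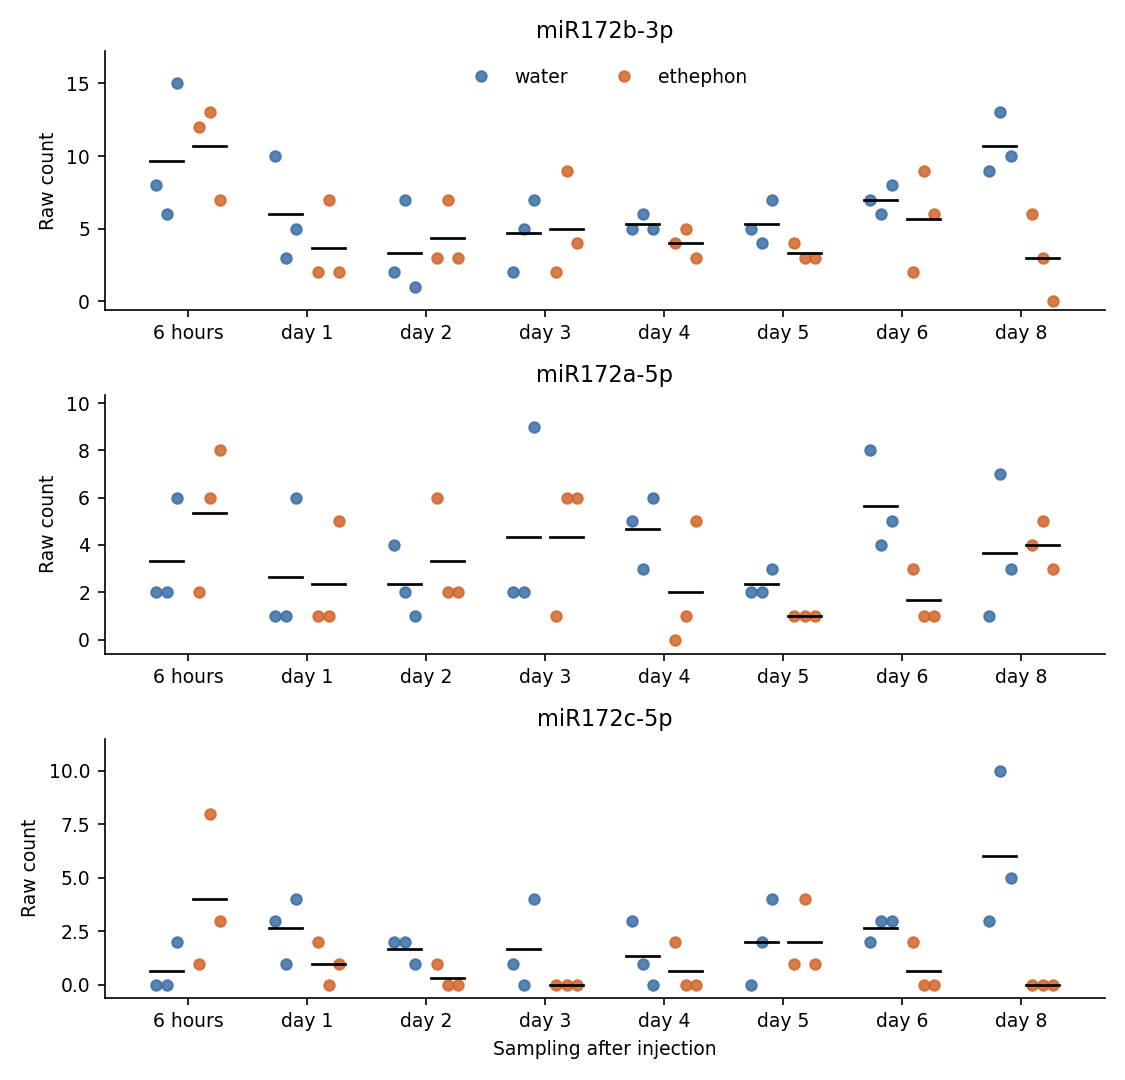
Raw counts (y axis) of miR172b-3p, miR172a-5p and miR172c-5p in each library by sampling (x axis), water in blue and ethephon in orange, with a bar at the mean of 3 libraries. At day 8 miR172c-5p had 3, 10 and 5 counts in water and 0 in all 3 ethephon libraries.

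Of the 5p members, miR172a-5p was seen in nearly every library of both treatments. It had 87 counts in water, from 1 to 9 per library with a median of 3, and 72 counts in ethephon, from 0 to 8 with a median of 2. As a share of all listed counts this was 0.00556% in water and 0.00523% in ethephon. It was detected in 24 of 24 water libraries and 23 of 24 ethephon libraries. At day 6 the water libraries held 8, 4 and 5 counts and the ethephon libraries 3, 1 and 1. At 6 hours the order was the other way, with 2, 2 and 6 counts in water and 2, 6 and 8 in ethephon. The miR172a-5p groups stood apart at day 6, and they overlapped at 6 hours. Among sequences that passed the filter, 72 of 456 pairs of a sequence and a sampling had every ethephon library below every water library (15.8%). In the edgeR fit with no filter, described below, the day 6 difference of miR172a-5p did not pass (adjusted p = 0.410).

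miR172c-5p, the 5p member shifted by 1 base, had fewer raw counts in ethephon. Its share of all listed counts was 0.00358% in water and 0.00189% in ethephon. miR172c-5p had 56 counts in water, from 0 to 10 per library with a median of 2, and 26 in ethephon, from 0 to 8 with a median of 0. It was detected in 19 of 24 water libraries and 11 of 24 ethephon libraries (two-sided Fisher's exact p = 0.0355, adjusted p = 0.579 over the 70 sequences below the filter). None of these 70 passed the adjusted threshold (0%), and 6 had an unadjusted p under 0.05. The detection tests took no account of sampling or of the lower depth in ethephon.

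The miR172c-5p counts of single samplings went in both directions. At 6 hours water held 0, 0 and 2 counts and ethephon 1, 8 and 3, with the highest counts in ethephon. At day 3 water held 1, 0 and 4 counts and ethephon 0, 0 and 0, and at day 6 water held 2, 3 and 3 and ethephon 2, 0 and 0. At day 8 water held 3, 10 and 5 counts and ethephon 0, 0 and 0, so that every water library had a count and no ethephon library had one. How many sequences below the filter separate in this way was not counted. For sequences that passed it, every ethephon library was below every water library in 15.8% of pairs of a sequence and a sampling. In CPM the day 8 water libraries stood at 63.5, 99.1 and 63.8. The water level was 4.47 times a floor of 3 counts over the ethephon group. That ratio leaves out the spread between libraries, so it is not a lower bound on the fold. At day 5 the highest value was 4 counts in the ethephon library of the lowest total, equal to 187 CPM. From 6 hours to day 3, ethephon held 16 counts in 6 of 12 libraries, and water held 20 counts in 9 of 12. Over day 4 to day 8, ethephon held 10 counts in 5 of 12 libraries, and water held 36 counts in 10 of 12. All listed counts were 740435 in ethephon and 760931 in water in the earlier block, and 637324 and 802920 in the later.

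An edgeR fit with no filter on low counts, with 127 sequences, gave tests of these low members. It was examined for miR172c-5p after the values of this member were seen. The averaged test of miR172c-5p passed (adjusted p = 0.0085), where 18.9% of all sequences changed. Ethephon had no count at day 3 and day 8, while no water group was empty. These empty groups set the direction of the average, which therefore does not describe the other samplings. At day 8 miR172c-5p was lower in ethephon (adjusted p = 0.00777), where 11.8% changed. Sequences with empty groups under both treatments have no usable averaged test in this fit. They count among the 127, so 18.9% is not the share among usable tests. In the filtered fit 42.1% of 57 changed on average. The averaged call was lost without day 3 (adjusted p = 0.116) and without day 8 (adjusted p = 0.189), the samplings with no count in ethephon. The day 8 call was lost without water replicate 2 (adjusted p = 0.0531), without ethephon replicate 1 (adjusted p = 0.058) and without ethephon replicate 2 (adjusted p = 0.0597). The difference of miR172c-5p also varied between samplings in this fit (adjusted p = 0.0227), as did 7.87% of sequences. That call was lost without any of the replicate numbers, with adjusted p between 0.107 and 0.845. miR172a-5p did not pass on average in this fit (adjusted p = 0.939). No fitted fold change is given for miR172c-5p, since groups at 0 leave it undetermined.

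miR172d-5p was too rare for a comparison. Its 6 counts were 2 in a water library of day 2 and 1 each in water libraries of day 4 and day 8 and ethephon libraries of 6 hours and day 4. These counts do not separate the treatments.

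The summed family followed its most abundant member. Family totals had composition factors of their own, so their CPM are not on the scale of single members. In water replicate 1 of day 3 the total read 884 CPM, while miR172a-3p alone read 979 CPM. Over 24 libraries the family total ranged from 884 to 2673 CPM in water and from 657 to 1714 CPM in ethephon, and the ranges overlapped. The mean was 1656 ± 472 CPM in water and 1206 ± 311 CPM in ethephon (SD, n = 24). In a fit of 23 family totals the log2 fold change was -0.47 (SE 0.10, adjusted p = 0.000187), and 5 of the 23 families were lower in ethephon (21.7%). Since miR172a-3p is most of the total, this is not a separate result.

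**Figure D5:**
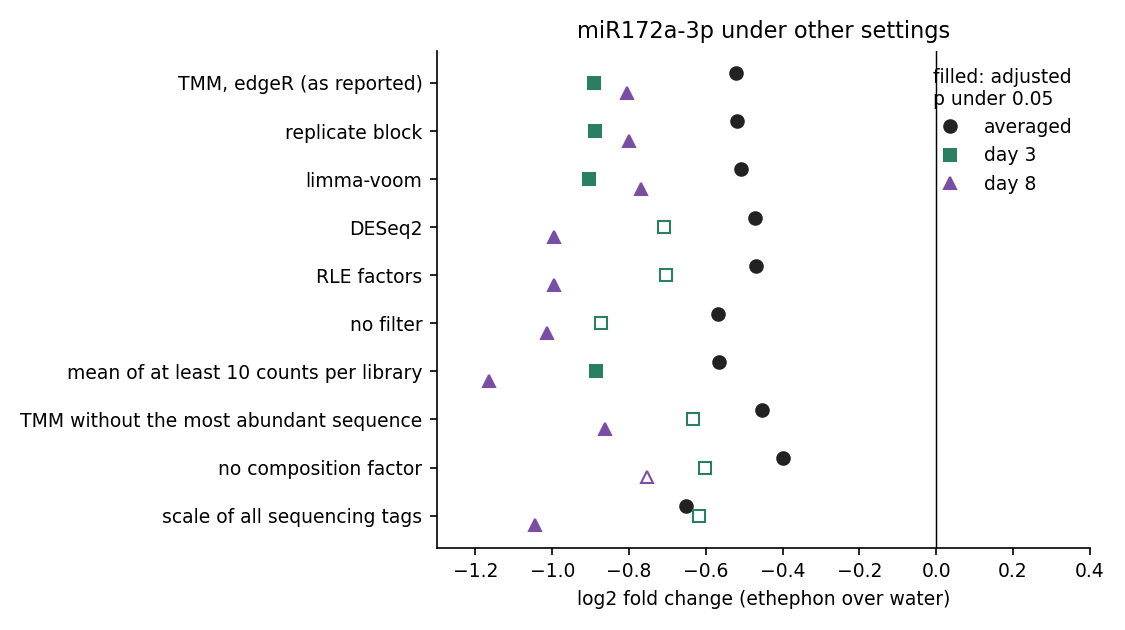
log2 fold change of miR172a-3p, ethephon over water (x axis), under the reported fit and 9 other settings (y axis), averaged (circles), at day 3 (squares) and at day 8 (triangles). Filled symbols had an adjusted p under 0.05. The averaged value stays filled between -0.40 and -0.65, and the day 3 value is open under 6 settings.

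The level of miR172a-3p over the 16 group means was compared with that of the 55 tested sequences outside the family, as Pearson's r of log2 CPM with a pseudocount of 1. The groups share libraries and scaling factors, so r is a description only. The most alike were miR396a-5p (r = 0.869), miR168b-3p (r = 0.838), miR160d-5p (r = 0.825), miR160e-3p (r = 0.716) and miR396a-3p (r = 0.715), against a median of 0.076. In other plants miR396 targets GRF growth regulators, miR168 targets AGO1 and miR160 targets auxin response factors. For miR172b-3p r was 0.682. Of these, miR396a-5p had an averaged log2 fold change of -0.59 (adjusted p = 2.11e-05), miR168b-3p of -0.60 (adjusted p = 2.55e-08) and miR160d-5p of -0.98 (adjusted p = 1.18e-11). miR160e-3p (-0.60, adjusted p = 0.0567) and miR396a-3p (-0.29, adjusted p = 0.223) did not pass. The r over 16 group means takes in the difference between treatments. Within water alone and within ethephon alone, over 8 group means each, r of miR160d-5p with miR172a-3p was 0.411 and 0.893. In the same order it was 0.809 and 0.907 for miR396a-5p, and 0.748 and 0.710 for miR168b-3p. For miR160e-3p it was 0.318 and 0.713, for miR396a-3p 0.852 and 0.629, and for miR172b-3p 0.811 and 0.578.

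The families that target SPL factors, the other side of the age pathway, were sparse. The table lists 16 sequences of miR156, miR529 and miR535, of which 10 had a count, 527 counts in all, and none passed the filter. miR156a-5p, the guide strand of miR156, had 30 counts in water and 47 in ethephon, and miR156a-3p had 48 and 34. miR156b-5p had 7 and 2 counts, and miR156c-5p had 15 and 11. These counts are low beside the 3696 of miR172a-3p, so no ratio between the families was formed. miR529a-5p had 3 counts in 3 water libraries and 23 counts in 12 ethephon libraries (two-sided Fisher's exact p = 0.0114, adjusted p = 0.579), and miR529a-3p had 11 and 30 counts. miR535a-5p had 119 counts in 24 water libraries and 99 in 19 ethephon libraries (two-sided Fisher's exact p = 0.0496, adjusted p = 0.579), and miR535a-3p had 21 and 23 counts. In the edgeR fit with no filter, 4 of the 10 had a usable averaged test, miR156a-3p, miR156a-5p, miR535a-3p and miR535a-5p. Of these 0 passed, with adjusted p between 0.308 and 0.9998, and 0 had an unadjusted p under 0.05. None of the 10 passed the adjusted threshold for detection in either direction, and 2 had an unadjusted p under 0.05. Raw counts and detection of these families were not adjusted for the lower depth of the ethephon libraries.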

How the data were processed

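Per the study's methods, the authors trimmed adapters, collapsed identical reads and aligned unique small RNAs to mature miRs of miRBase. The aligner and its mismatch limit were not given in the sources used here. The deposited counts are raw counts per mature sequence. A deposited score, reads per fixed number of sequencing tags rounded to whole numbers, served only to recover tags per library. An other deposited list gave sequences and names. The pooled total columns were not used.

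Counts of 48 libraries were fitted in R 4.3.3 with edgeR 4.0.16 (filterByExpr, minimum count 10, minimum total 15; TMM; quasi-likelihood, 16 group means, common biological coefficient of variation 0.246). Each library counts as independent, from separate plants per the labels. Per the study's methods, all samplings drew plants from the same treatment blocks of the field plot. The reported fit did not model variation between these blocks, so p-values averaged over samplings may be too small. p-values were adjusted (Benjamini-Hochberg) over all sequences tested in a contrast, with a threshold of 0.05. SE is the absolute log2 fold change over the square root of F. Alternatives used DESeq2 1.42.0 and limma 3.58.1, other scalings and filters, and omissions. Scripts were tested on simulated data. Detection p-values (scipy) were adjusted over all sequences below the filter. Floors cover counting error only, whereas the SE also takes in the spread between libraries.

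Named were all 5 members, the 5 sequences most like miR172a-3p over group means, and sequences of miR156, miR157, miR529 and miR535 with a count in 3 or more libraries. Members, lists and tests were chosen with earlier results of these data known. No 2 libraries of a group agreed within sampling noise.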

Additional observations from a re-analysis of the deposited data

Results flagged for a closer look

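The difference of miR172c-5p between ethephon and water varied between samplings in the edgeR fit with no filter (F test of the difference itself, adjusted p = 0.0227, 127 sequences). Ethephon held 12 counts against 2 in water at 6 hours, and 0 against 18 at day 8. The call was lost without each replicate number in turn.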

How the results depend on the processing

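The averaged decrease of miR172a-3p kept its direction and its call in all 21 alternatives (-0.65 to -0.40), as did the family total (-0.64 to -0.27). With a replicate number left out these ranges were -0.53 to -0.50 and -0.49 to -0.35. Of 422 alternative values over 32 results, 361 kept side of the threshold and direction, where there is one. This total includes results that were not called and stayed so. For miR172a-3p, 8 alternatives kept and 8 lost the call at day 3, and 13 kept and 3 lost that at day 8. Over samplings in ethephon 4 kept and 7 lost it, and for day 8 minus 6 hours in ethephon 2 and 10. For miR172c-5p with no filter, 12 kept and 2 lost the averaged call. It was 8 and 5 at day 8, and 3 and 4 between samplings.

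The field plot was split into 3 replications, but the labels do not tie the replicate numbers to them. Same-numbered libraries deviated together (r over 0.1) in 6 of 24 pairs. With the number as a replicate block the averaged miR172a-3p value was -0.52 (adjusted p = 1.04e-05), and no call of the members changed.

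For miR172a-3p at day 3 the call was lost with RLE factors (-0.70), without a composition factor (-0.60), scaled by all tags (-0.62), with TMM without the most abundant sequence (-0.63), with no filter (-0.87) and with DESeq2 (-0.71). With 1 library left out the values were -1.02 to -0.60 at day 3 and -1.07 to -0.68 at day 8. At day 8 the call was also lost without a composition factor (-0.75), and at day 5 it was gained on the scale of all tags (-1.02). Without a composition factor the value at 6 hours read 0.048 while the median of all sequences moved by 0.37, and relative to that median it stayed below 0. With 1 library left out it lay between -0.33 and -0.04 at 6 hours, -0.42 and -0.06 at day 1, -0.28 and 0.15 at day 2, and -0.78 and -0.28 at day 6.

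The adjusted p of change over samplings in ethephon rose to 0.0782 with RLE factors, 0.0721 without a composition factor, 0.0553 when scaled by all tags, 0.0694 with a mean of at least 10 counts, and 0.0809 to 0.152 without a replicate number. For day 8 minus 6 hours in ethephon the call was lost with RLE factors (-0.67), no composition factor (-0.80), all tags (-0.87), TMM without the most abundant sequence (-0.74), no filter (-0.73), a mean of at least 10 counts (-0.54), DESeq2 (-0.67) and without a replicate number (-0.84 to -0.63). In water the same contrast turned to 0.14 with RLE factors, 0.0033 without a composition factor, 0.018 with TMM without the most abundant sequence, 0.056 with no filter, 0.42 with a mean of at least 10 counts and 0.14 with DESeq2, and lay between -0.44 and 0.16 without a replicate number.

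For miR172b-3p, leaving out 1 library gave -0.14 to 0.49 at 6 hours, -1.53 to -0.06 at day 1, 0.31 to 2.02 at day 2, -1.28 to -0.12 at day 3, -0.37 to 0.063 at day 4, -0.39 to 0.10 at day 5, -0.87 to 0.14 at day 6 and -2.45 to -0.84 at day 8. At day 5 the value was 0.0048 with RLE factors and 0.030 with limma-voom, and at day 8 limma-voom made the call (-1.88). Its share of the 3p counts differed by -0.40 to 1.61 percentage points without a replicate number.

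The fit with no filter was examined for miR172c-5p after its values were seen. Its averaged adjusted p was 0.116 without day 3, 0.189 without day 8 and 0.00746 to 0.0401 without replicate 1 or 2. Without replicate 3 that test was void, since groups of both treatments then had no count. At day 8 the adjusted p was 0.00609 to 0.1495 with libraries or replicate numbers left out. Between samplings it was 0.0684 on the scale of all tags and 0.107 to 0.845 without a replicate number. The causes of these changes were not tested. DESeq2 was not run for the F tests, its adjusted p for miR172b-3p at day 5 was not available, and miR172b-3p did not pass the filter of a mean of 10 counts. Fits on the 6 libraries of 1 sampling gave miR172b-3p a value at 6 hours only.

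Depth limits the low members most. miR172b-3p had a median of 5 counts per library, miR172a-5p of 2.5 and miR172c-5p of 1, so that differences of these members at a single sampling were not detectable unless large.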
